A study of Mus musculus with 2 samples.

Results

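The 10 genes described here encode core erythroid transcription factors and their cofactors, and were followed over 3 h in culture in erythroid progenitors that lack the erythropoietin receptor. They are Gata1, Klf1, Tal1, Nfe2, Gfi1b, Lmo2, Zfpm1, Ldb1, Bcl11a and Myb, chosen by symbol among probe sets annotated to exactly 1 gene. All 10 were measured, each by 1 probe set in the deposited table, which covered 17874 genes. Only 43 of those genes had several probe sets there, and probe sets outside that table were not examined. The cells were labelled colony-forming unit erythroid (CFU-E) cells, committed red cell progenitors whose survival normally depends on erythropoietin. They came from fetal livers of EpoR-/- BALB/c embryos on gestational day 13.5. Hepatocyte markers were also bright on both arrays, as given below. After lysis of red cells, pools of 40 to 50 livers were depleted of cells with lymphoid, myeloid, megakaryocytic or late erythroid surface antigens, by antibodies and magnetic beads. Both groups were deprived of growth factors for 1 h. The 0 h group (1 array) was then lysed, and the 3 h group (1 array) was kept for 3 h in Panserin medium without added growth factors, per the treatment protocol. At 3 h, however, the treatment label speaks of supplemental growth factors, the genotype label of both samples reads Epo KO where the protocol names the receptor, and only the 0 h sample carries a strain label, so groups are named here by time alone. No receptor-positive cells were analysed here, and both groups share the receptor deletion.

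GATA1 is a zinc finger protein that binds GATA motifs and drives erythroid genes together with its cofactor FOG1, the product of Zfpm1. On many of those genes it sits in a complex with the helix-loop-helix protein TAL1 and an E protein, bridged by LMO2 and the self-associating adaptor LDB1. KLF1 binds CACCC motifs at globin and red cell membrane genes, and NFE2, the large subunit of NF-E2, pairs with a small MAF protein at globin and haem synthesis genes. GFI1B and BCL11A are zinc finger repressors, BCL11A of embryonic and fetal globin genes, and MYB keeps progenitors dividing and is turned down as they mature.

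Expression was measured as log2 values made by the authors with RMA, a method that corrects background, gives all arrays the same distribution and summarises the probes of each probe set. A difference is the log2 value at 3 h less that at 0 h. With 1 array a group there is no replicate error and no test for any difference, and the small number of arrays sets the precision. The median of all gene values, 5.70, served as a floor: 9284 genes that reached it on either array were counted. In a bulk sample, fewer cells of a type and less RNA per cell cannot be told apart.

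Windows upstream of the members' starts, with the motifs that these same factors bind, are shown first for Gata1 and Tal1, which were higher at 3 h by similar amounts, for Klf1, and for Myb, the member that was lowest against 0 h. Each is the 250 bases before the RefSeq gene start in GRCm38.p6, read 5′ to 3′ along the gene. Capitals mark, on either strand, the motif AGATAA of the GATA factors and its variant TGATAA, the motif CACCC of the KLF factors, and CAGNTG, which TAL1 binds with E proteins. The Gata1 window lies at chrX:7967911-7968160 on the minus strand, that of Tal1 at chr4:115056176-115056425 on the plus strand, that of Klf1 at chr8:84901732-84901981 on the plus strand, and that of Myb at chr10:21160985-21161234 on the minus strand.
Gata1: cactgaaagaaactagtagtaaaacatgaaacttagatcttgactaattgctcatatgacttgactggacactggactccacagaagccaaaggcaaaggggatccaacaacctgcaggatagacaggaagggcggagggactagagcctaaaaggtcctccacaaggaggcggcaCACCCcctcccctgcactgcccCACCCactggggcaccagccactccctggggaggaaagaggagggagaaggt
Tal1: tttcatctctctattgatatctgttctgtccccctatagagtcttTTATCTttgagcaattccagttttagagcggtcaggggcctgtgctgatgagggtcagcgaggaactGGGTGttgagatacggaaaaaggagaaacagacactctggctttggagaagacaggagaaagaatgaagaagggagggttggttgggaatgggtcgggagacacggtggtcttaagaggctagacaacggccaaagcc
Klf1: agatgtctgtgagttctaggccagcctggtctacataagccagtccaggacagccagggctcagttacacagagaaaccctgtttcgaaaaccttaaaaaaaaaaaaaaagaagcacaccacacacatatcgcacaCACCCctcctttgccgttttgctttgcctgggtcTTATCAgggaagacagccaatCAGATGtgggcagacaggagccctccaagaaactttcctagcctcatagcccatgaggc
Myb: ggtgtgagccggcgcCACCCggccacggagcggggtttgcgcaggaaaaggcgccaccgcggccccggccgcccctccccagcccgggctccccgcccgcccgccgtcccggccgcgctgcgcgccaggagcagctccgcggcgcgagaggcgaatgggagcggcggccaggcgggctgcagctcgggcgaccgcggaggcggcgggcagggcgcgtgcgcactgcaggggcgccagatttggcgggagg

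The Gata1 window holds 2 copies of CACCC, which begin 74 and 52 bases before the start, and neither GATA motif. The Tal1 window holds 1 AGATAA on the minus strand, 205 bases before the start, and 1 CACCC. The Klf1 window holds 1 TGATAA on the minus strand 80 bases before the start, followed by 1 CAGNTG at 59 bases, and 1 CACCC farther upstream at 114. The Myb window, with a GC content of 81.2%, holds 1 CACCC at 235 bases and no other capitalised motif. Windows were listed for 8 of the 10 members, 11 in all, since Ldb1 has 3 and Tal1 has 2, and the Tal1 window printed is the upstream one. Nfe2 and Lmo2 are named only. CACCC was in 10 of these 11 windows and in 52.0% of 32851 windows of the same length over all genes. AGATAA or TGATAA was in 4 of 11, against 16.6% of all windows. CAGNTG was in 2 of 11, against 44.8%. TGANTCA, the core bound by NF-E2 and AP-1, was in 0 of 11, against 6.75%. AACNG, the core bound by MYB, was in 6 of 11, against 74.2%. Motifs overlapped in the Tal1 window, where an AACNG shares 1 base with the CACCC, and in 1 Ldb1 window, where AACNG overlaps CAGNTG and AGATAA. GC content of the 11 windows ran from 44.4% to 81.2%. A match is a run of letters, not a measured binding site, and the motifs of Ldb1 windows come from 3 alternative starts of 1 gene.

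Nfe2, Gata1 and Tal1 were the members that were higher at 3 h by at least 1.5-fold. No member was lower by that much, although Myb came within 0.0039 of the threshold of 0.58 on the log2 scale. The same 1.5-fold threshold was passed upward by 6.94% and downward by 4.80% of all counted genes, against 3 (30.0%) and 0 of the 10 members. At 2-fold 1 member was higher and 0 lower, beside 2.00% and 0.872% of all genes. In total 7 members were higher and 3 lower, with a median difference of 0.14 beside 0.0094 for all genes. The values of all members at both times are drawn by gene in the plot of levels.

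**Figure D1:**
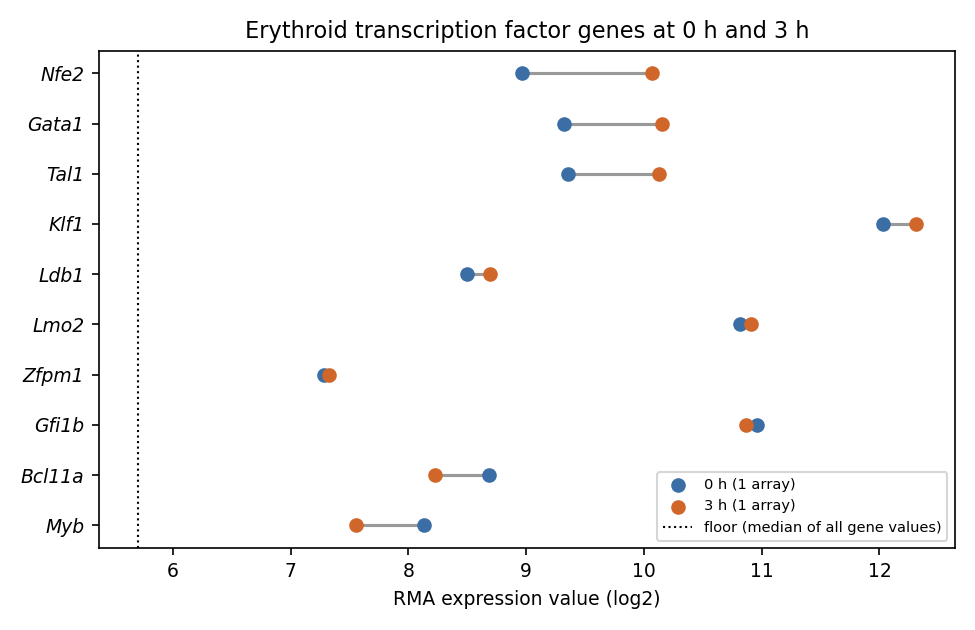
RMA log2 expression value (x axis) of the 10 erythroid transcription factor genes (y axis) at 0 h (blue) and 3 h (orange), 1 array each, joined by a line, with no error bars since there are no replicates. Nfe2, Gata1 and Tal1 have the longest lines to the right, Bcl11a and Myb the longest to the left, and all values lie to the right of the floor of 5.70 (dotted).

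Among the DNA-binding activators, Nfe2 had a log2 value of 8.96 at 0 h and 10.07 at 3 h. The difference of 1.11 is 2.15-fold, and 1.66% of the genes at or above the floor had a higher one. Nfe2 was therefore the member farthest from its 0 h value. Its probe set was 3.26 above the floor at 0 h and 4.37 above it at 3 h, so this fold does not rest on a dim signal.

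Gata1 had 9.32 at 0 h and 10.15 at 3 h, a difference of 0.83 or 1.78-fold. Tal1, whose product joins GATA1 on chromatin, had 9.35 at 0 h and 10.13 at 3 h, a difference of 0.78 or 1.71-fold. The members of this pair thus differed by similar amounts, although levels of different probe sets cannot be compared as amounts of RNA. A higher difference was found in 3.20% of genes for Gata1 and 3.68% for Tal1. Among the 1115 genes within 0.5 of the mean level of Gata1 on the log2 scale, 4.13% were at least 1.5-fold higher and 1.35% had a higher difference than Gata1. The same number of genes lay as close to Tal1, and 1.79% of them had a higher difference than it. Of 1239 genes as close in level to Nfe2, 0.404% had a higher difference.

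Klf1 had 12.03 at 0 h and 12.31 at 3 h, a difference of 0.28 or 1.21-fold. It was higher at 3 h but short of 1.5-fold. Its probe set is bright, where array signals can be compressed, which was not tested for Klf1. Among the 198 genes within 0.5 of its mean level, 1.52% were at least 1.5-fold higher, and 7.07% had a higher difference than Klf1.

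The cofactor genes that carry no erythroid DNA-binding specificity of their own differed less than Nfe2, Gata1 and Tal1. This does not set cofactors apart from DNA-binding members, since Klf1 differed by 0.28 and Gfi1b by -0.090. Ldb1, the dimerising adaptor of the complex, had 8.49 at 0 h and 8.69 at 3 h, a difference of 0.20. Lmo2, the bridge between TAL1 and GATA1, had 10.82 and 10.91, a difference of 0.090. Zfpm1, which encodes FOG1, had 7.28 and 7.33, a difference of 0.045. So these 3 cofactor genes were higher by at most 1.15-fold while Gata1 and Tal1 were higher by at least 1.71-fold. Zfpm1 had the dimmest probe set of the members, 1.58 above the floor at 0 h.

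The 3 members that were lower at 3 h are 2 repressors and the progenitor factor MYB. Gfi1b had 10.96 at 0 h and 10.87 at 3 h, a difference of -0.090 or 1.06-fold. Bcl11a had 8.69 and 8.23, a difference of -0.46 or 1.37-fold. Myb had 8.14 and 7.55, a difference of -0.58 or 1.496-fold, so that its signal at 3 h was 33.2% under that at 0 h. A lower difference was found in 4.92% of genes for Myb and in 7.96% for Bcl11a. Myb reached the 1.5-fold threshold after quantile normalization of both arrays against each other (-0.60) and after removal of an intensity trend (also -0.60). The probe sets of Myb, Ldb1 and Lmo2 are of the kind that matches several transcripts of the same gene.

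**Figure D2:**
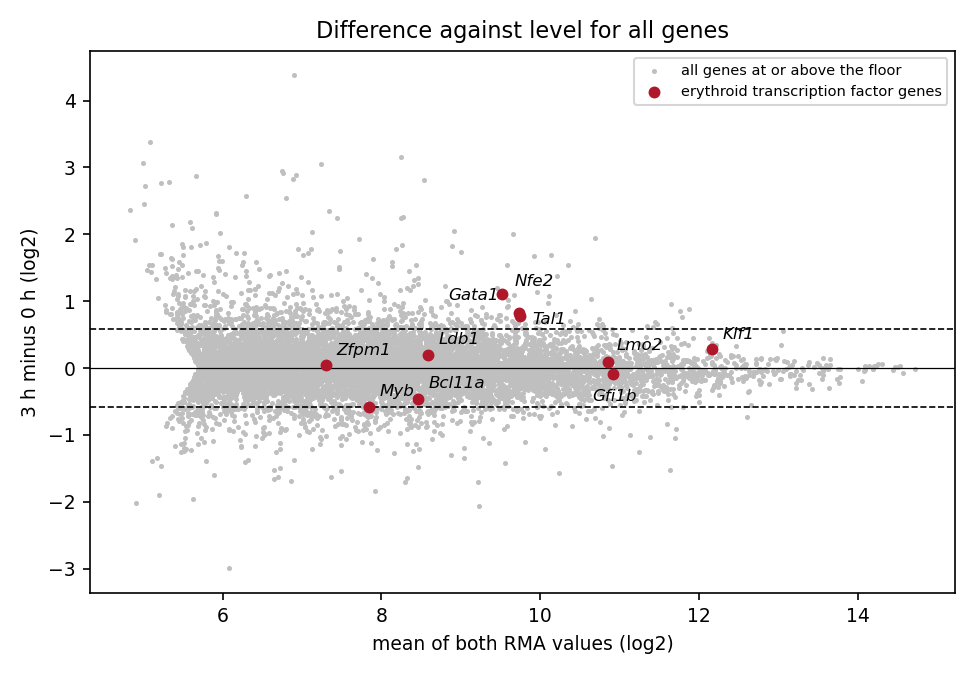
Difference between 3 h and 0 h (y axis, log2) against the mean of both values (x axis, log2) for 9284 genes at or above the floor (grey) and the 10 members (red, labelled), 1 array a time. Dashed lines mark 1.5-fold; Nfe2, Gata1 and Tal1 lie above the upper line, Myb lies at the lower one, and the others lie between.

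Over all counted genes the differences had a robust SD of 0.31, a spread over genes and not an error, and 5 of the 10 members lay within it. The plot of difference against level shows that Gata1, Tal1 and Nfe2 lie in a range where few genes differ by as much, whereas Zfpm1, Ldb1, Lmo2 and Gfi1b lie in the dense middle.

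Partners of the members were described from lists of known complexes. Counts past 1.5-fold in this and every later list stand beside 6.94% higher and 4.80% lower of all counted genes. Whether any list differs from all genes was not tested. Of 14 measured partners of the LDB1-TAL1 complex, 11 reached the floor, with 2 at least 1.5-fold higher, none lower and a median of 0.36. Runx1, which encodes a core-binding factor, had 5.74 at 0 h and 6.41 at 3 h (0.67), and Gata2, the GATA factor of earlier progenitors, had 6.05 and 6.67 (0.62). Both were close to the floor. Ssbp2, which encodes a single-stranded DNA-binding protein that stabilises LDB1, differed by 0.57 (9.36 to 9.93), just short of 1.5-fold. The E protein partners of TAL1 went both ways, Tcf12 by 0.34, Tcf3 by -0.26 and Tcf4 by -0.26.

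Among partners and rivals of NFE2, 6 of 7 measured genes reached the floor and their median was 0.05. The small MAF gene Maff had 8.26 at 0 h and 6.71 at 3 h, a difference of -1.55, and was the only one past 1.5-fold. The other small MAF genes, Mafk (8.19 to 8.33) and Mafg (8.62 to 8.57), differed by 0.15 and -0.051. Bach1, which encodes a haem-sensing repressor that competes for the same motif, differed by 0.32 (10.23 to 10.55). Nfe2l2, which encodes the related factor NRF2, differed by 0.18. Nfe2 was thus 2.15-fold higher while Mafk and Mafg stayed within 1.11-fold.

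No corepressor or coactivator gene reached 1.5-fold, beside 6.94% higher and 4.80% lower of all counted genes. These lists are short, so few genes past 1.5-fold would be found in them at those shares. Of 13 NuRD subunit genes, which encode the remodelling and deacetylase complex recruited by FOG1 and BCL11A, 6 were higher and 7 lower, with a median of -0.09. Mta1 (8.68 to 8.15) differed by -0.53, Mta3 (7.68 to 8.13) by 0.45 and Gatad2a by 0.45. Of 9 genes of the LSD1-CoREST complex recruited by GFI1B, 5 were higher and 4 lower, with a median of 0.03. In that list the demethylase gene Kdm1a differed by 0.45 (10.61 to 11.06), Rcor2 by -0.37 and Hdac1 by 0.34. Of 8 coactivator and adaptor genes the median was 0.17, and the acetyltransferase gene Kat2b differed by 0.51, Smarcc2 by 0.49 and Smarcc1 by -0.37. Hdac1 and Hdac2 belong to both corepressor lists, and Kdm1a and Kat2b rest on probe sets with possible matches to several genes.

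**Figure D3:**
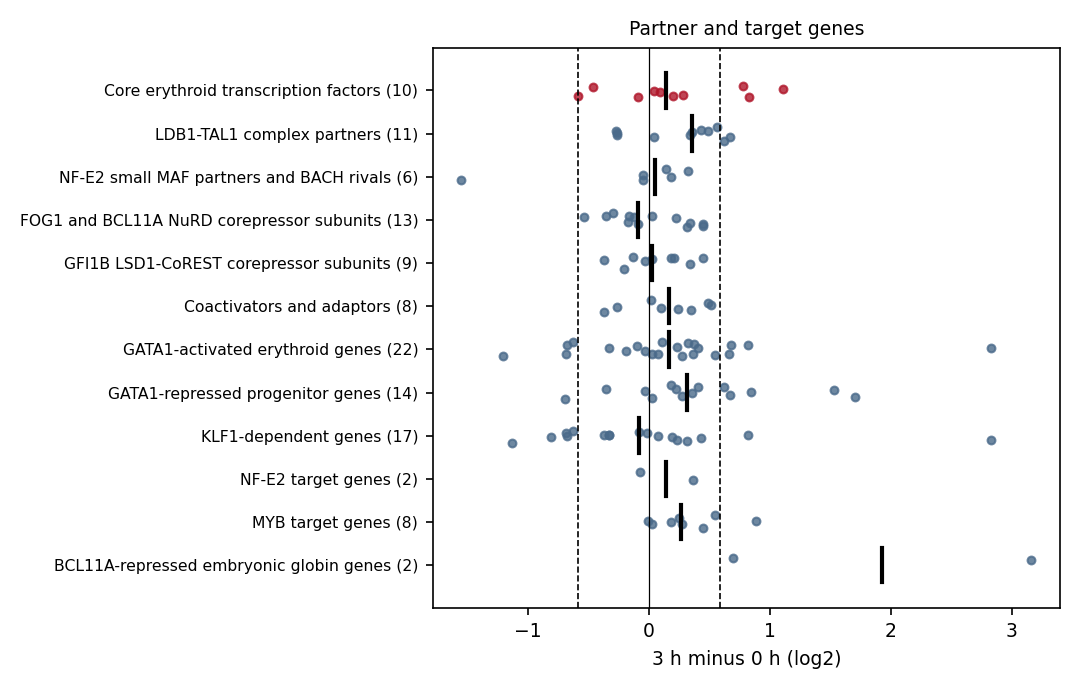
Difference between 3 h and 0 h (x axis, log2) for the 10 members (red) and for genes of each partner or target list at or above the floor (blue, number in brackets), 1 array a time. Points are genes, black bars are list medians and dashed lines mark 1.5-fold. No gene of the corepressor and coactivator lists passes either line. Slc4a1, Sox6 and Cdkn2c passed the floor only at 3 h and so could lie only to the right of 0. Epb42, Slc25a39 and the corepressor gene Phf21a passed it only at 0 h and so could lie only to the left.

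Target genes were taken from lists compiled from general knowledge of each factor. For each target list, the shares of all counted genes past 1.5-fold were 6.94% higher and 4.80% lower. Of 26 measured genes activated by GATA1, 22 reached the floor; past 1.5-fold, 4 of them were higher and 4 lower, with a median of 0.17. The higher ones were Slc4a1 (band 3, 5.47 to 8.30), the haem synthesis gene Alad (8.47 to 9.29), the spectrin gene Sptb (0.68) and the mitochondrial transporter gene Abcb10 (0.66). The lower ones were Btg2 (-1.20), an antiproliferative gene that immediate early signals also induce, E2f2 (-0.69), the membrane skeleton gene Epb42 (-0.68) and the ankyrin gene Ank1 (-0.62). Epb42 (5.91 to 5.23) was below the floor at 3 h. Slc4a1 was below it at 0 h and was measured by a probe set with possible matches to several genes. The floor thus fixed the direction of both Epb42 and Slc4a1. With no floor 16 of the 26 were higher and 10 lower, with a median of 0.090. Genes of this list were therefore found in both directions beside a Gata1 value that was 1.78-fold higher.

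Of 14 progenitor and other-lineage genes listed as repressed by GATA1, 5 were at least 1.5-fold higher and 1 lower, with a median of 0.32. The higher ones were Sox6 (4.38 to 6.08), whose product also acts in maturing erythroid cells, Ets1 (7.37 to 8.90), the vimentin gene Vim (11.34 to 12.19), Runx1 and Gata2, and the lower one was Etv6 (8.07 to 7.38). Kit, the stem cell factor receptor gene, differed by 0.02 (9.01 to 9.03). Sox6 was below the floor at 0 h and passed it only at 3 h, so its direction was fixed. Sox6 and Ets1 rest on probe sets that can match several genes. Vim and Ets1 are also expressed by myeloid cells, whose markers are given below. Runx1 and Gata2 are also in the list of LDB1-TAL1 partners, so these counts are not independent.

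Of 20 measured genes that depend on KLF1, 17 reached the floor; past 1.5-fold, 2 of them were higher and 5 lower, with a median of -0.08. The water channel gene Aqp1 (9.92 to 8.79) differed by -1.13, the adhesion gene Icam4 by -0.81 (9.53 to 8.73), and E2f2, Epb42 and Ank1 by the values given above. Slc4a1 and Alad were the higher ones. Slc4a1 and Cdkn2c (5.34 to 5.76) passed the floor only at 3 h and Epb42 only at 0 h, which fixed their direction. With no floor 10 of the 20 were higher and 10 lower, with a median of 0.0033. Klf3, which encodes a repressor that binds the same CACCC motif, differed by -0.01. Klf1 itself was 1.21-fold higher.

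Few targets of the remaining factors were bright enough to describe. Of 8 measured NF-E2 targets 2 reached the floor, the ferrochelatase gene Fech (0.37, 10.69 to 11.06) and Slc25a39 (-0.08). Slc25a39 (5.75 to 5.67) reached it only at 0 h, which fixed its direction. The platelet genes of that list, Tubb1 (4.65 to 4.68), Tbxas1 (5.63 to 5.37) and Ppbp (3.39 to 3.27), were below the floor on both arrays. Of 11 measured MYB targets 8 reached the floor, with a median of 0.26, and 1 was at least 1.5-fold higher, the neutrophil elastase gene Elane (0.88). Mpo (0.45) and Prtn3 (0.55), also granule genes, had the next largest differences, and Myc differed by 0.27. These members of the list are markers of granulocytes as well. The embryonic globin genes that BCL11A represses, Hbb-bh1 (6.67 to 9.83) and Hbb-y (8.16 to 8.85), were higher by 3.16 and 0.70, while Bcl11a was 1.37-fold lower. Their probe sets can match more than 1 gene, so related globins may contribute to either value.

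Several members are also expressed outside the erythroid lineage, Gata1, Tal1, Nfe2, Gfi1b and Zfpm1 in megakaryocytes, Gata1 and Tal1 in mast cells, and Myb, Lmo2 and Nfe2 in early or myeloid progenitors. Of 12 measured erythroid markers 10 reached the floor, with 2 higher (Slc4a1 by 2.83 and Tfrc by 0.61) and 1 lower (Ank1, -0.62) past 1.5-fold and a median of 0.09. Slc4a1 passed the floor only at 3 h, which fixed its direction. Car2 (13.24 to 13.20) had the brightest probe set of these markers, and Rhag had 10.90 and 11.00 and Tfrc 10.11 and 10.72. Alas2 (4.49 to 4.72) and Hba-a1 (3.21 to 3.27) were below the floor on both arrays. Each of these 2 genes rests on 1 probe set, which may respond poorly, so low values do not show that their RNA was absent. The log2 of the summed linear signal of all 12 was 14.35 at 0 h and 14.49 at 3 h. The receptor gene itself, Epor, had 7.08 and 6.89; whether its probe set lies in the deleted part is not known, so this is no check of the genotype.

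Of 11 measured megakaryocyte markers 4 reached the floor, 1 of them at 0 h and 4 at 3 h. Gp1bb, Gp9 and Pf4 passed it only at 3 h, which fixed their direction. With no floor 6 of the 11 were higher and 5 lower, with a median of 0.065. The log2 of the summed signal of all 11 went from 8.83 to 9.12. Gp1bb (4.49 to 6.68) differed by 2.19, Gp9 (5.63 to 6.10) by 0.47 and Itga2b (7.14 to 7.05) by -0.09. Pf4 (5.67 to 5.74) lay at the floor, and Vwf (3.70 to 3.80) and Ppbp lay below it. Of 12 measured mast cell and basophil markers 3 reached the floor, Gata2, Cpa3 (5.87 to 6.32) and Hdc (5.93 to 6.26), and the sum went from 8.12 to 8.46. Hdc rests on a probe set with possible matches to several genes. The protease genes Mcpt4 (3.33 to 3.36), Cma1 (4.11 to 3.72) and Tpsb2 (3.97 to 3.93) and the receptor gene Fcer1a (2.39 to 2.99) were below the floor on both arrays. The part of these cells in the differences of Nfe2, Gata1 and Tal1 was not tested.

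Of 14 measured granulocyte markers 12 were higher and 2 lower at 3 h with no floor, with a median of 0.74. At 0 h 6 reached the floor and at 3 h 9, since Camp, Ngp and Lcn2 passed it only at 3 h, which fixed their direction, and Csf3r (-0.53) and Mmp9 (-0.18), the lower ones, did not pass it. The log2 of the summed signal of all 14 went from 12.68 to 13.62. S100a9 (9.72 to 11.67), S100a8 (9.28 to 10.98) and Camp (5.11 to 6.78) differed most, and Mpo (11.70 to 12.15) had the brightest probe set. S100a8 rests on a probe set with possible matches to several genes. Of 15 macrophage and monocyte markers 5 reached the floor, with 4 higher and 1 lower past 1.5-fold, and the sum went from 10.78 to 11.38. With no floor 10 of the 15 were higher and 5 lower, with a median of 0.071. Lyz2 (7.98 to 9.80) and Csf1r (8.32 to 9.32) were higher and Vcam1 (9.22 to 8.25) lower, while C1qa (4.18 to 4.00) and Itgam (3.45 to 3.52) were below the floor. Of 9 measured stem and early progenitor markers 7 reached the floor, with a median of 0.04, of which Hlf (6.73 to 5.78) was lower by 0.95 and Hoxa9 (6.49 to 6.78) and Mecom (5.92 to 6.11) higher by at most 0.30. Of 12 lymphoid markers only Ighm (5.70 to 6.44) reached the floor, at 3 h. All 16 measured hepatocyte markers reached it, with a median of -0.19, and Afp (14.60 to 14.53) had the brightest probe set. Krt8 (0.95) and Krt18 (0.88) were the only 2 that were higher, both past 1.5-fold. The other 14 were lower, 3 of them past 1.5-fold, with Apob (-0.79) the lowest. The log2 of the summed signal of all 16 was 16.79 at 0 h and 16.71 at 3 h, the highest of the marker lists. Hepatocyte transcripts were thus a bright part of both samples. The part of all these cell types in the members' differences was not tested.

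**Figure D4:**
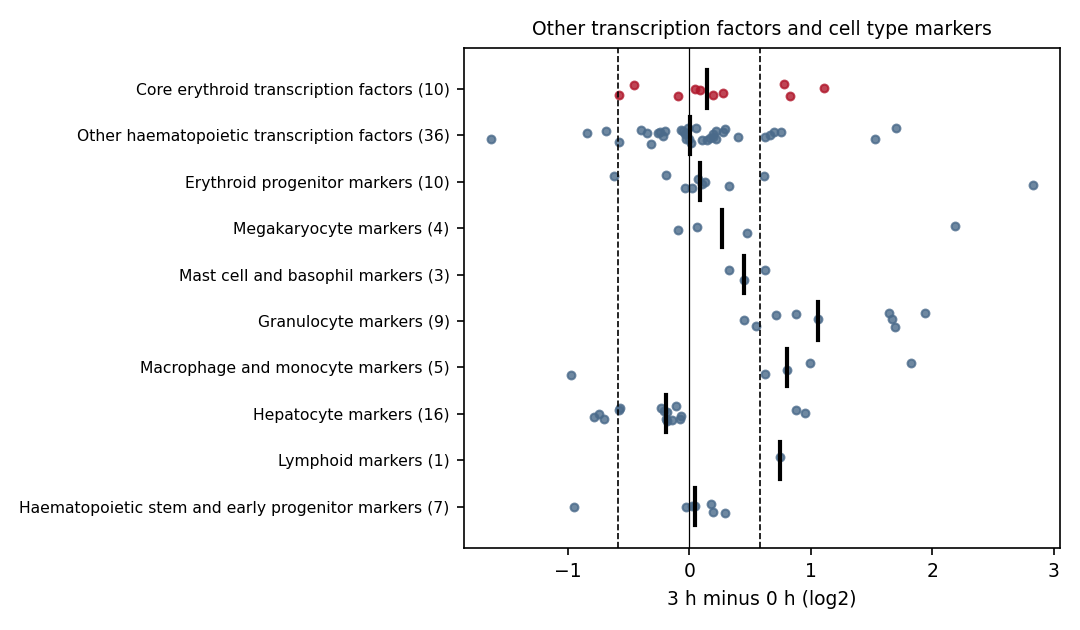
Difference between 3 h and 0 h (x axis, log2) for the 10 members (red), other haematopoietic transcription factor genes and marker genes of each cell type at or above the floor (blue, number in brackets), 1 array a time. Black bars are medians and dashed lines mark 1.5-fold. Of the 9 granulocyte markers shown, 3 (Camp, Ngp and Lcn2) passed the floor only at 3 h and so could lie only to the right of 0. The same holds for the megakaryocyte markers Gp1bb, Gp9 and Pf4, and for Slc4a1, Sox6 and Ighm. The 2 lower granulocyte markers are below the floor and not shown, and the erythroid markers centre at 0.09.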

How the data were processed

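The deposited table holds log2 values of 20666 probe sets on 2 arrays, made with RMA and the affy package per the submitters' processing notes. Not given in the sources used here: versions, and which arrays shared the normalization. This method hides a shift of all transcripts and shrinks differences between dim signals. Values were used as deposited. Platform annotation named 17918 probe sets by 1 gene, 79 by several and 2669 by none. Probe sets with several genes were left out. Of the named ones, 17767 matched RefSeq genes by Entrez ID, and 0 symbols changed. Averaging applied to 43 of 17874 genes.

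No test was made, since each group has 1 array. The members and lists were chosen with earlier results of these data known. Named genes were all members, up to 3 per list with the largest absolute difference at or above the floor, the marker of each list with the brightest probe set, and defining markers below the floor. The rule's 2 genes nearest in level to each member past 1.5-fold are not reported, since levels of different probe sets cannot be compared. Sptb, Abcb10, Btg2, E2f2, Epb42, Ank1, Icam4, Runx1, Gata2, Etv6, Kit, Klf3, Myc, Tcf3, Tcf4, Tcf12, Mafk, Mafg and other genes outside this rule, and the windows printed, were chosen after seeing values. Motifs were searched on both strands of RefSeq windows of GRCm38.p6. Lists were compiled from general knowledge. Alternatives changed the normalization, the choice of probe sets, the floor and the threshold. The steps were tested on simulated data. The work used Python 3.11.15, numpy 2.4.6, pandas 2.3.3, statsmodels 0.14.6 and matplotlib 3.10.9.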

Additional observations from a re-analysis of the deposited data

How the results depend on the processing

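The differences of all 10 members kept their sign in every alternative that gave them a value, and each moved by less than 0.31, the robust SD over genes. Only the changes of normalization could alter these differences, as each member has 1 probe set. Nfe2 ranged from 1.11 to 1.12, Gata1 from 0.83 to 0.85, Tal1 from 0.78 to 0.80 and Myb from -0.60 to -0.58. The count of members at least 1.5-fold higher was 3 in each alternative at that threshold. The count at least 1.5-fold lower was 1 (Myb) after quantile normalization of both arrays and after removal of an intensity trend by loess (span 0.3), where 6.34% and 6.63% of all genes were higher and 5.39% and 5.06% lower. At 2-fold 1 member was higher, beside 2.00% of all genes higher and 0.872% lower. Leaving out suffixed probe sets removed Myb, Ldb1 and Lmo2, and the median of the other 7 was 0.28. A floor of 7.54 (95th percentile over genes typical of other organs) removed Zfpm1, and the median of the other 9 was 0.20. Taking the probe set with the highest mean changed no member, as each has 1, and no floor changed none. Leaving out only the suffixes for matches to several genes was added after the data were seen and left the members as they were. For the other lists, 48 of 308 counts moved by over 1.5 times and 6 of 134 medians by over 0.31. No paired analysis was possible because each group has 1 array.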

Other observations

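Other haematopoietic transcription factor genes were measured beside the 10 members. Of 43 measured, 36 reached the floor of 5.70, and past 1.5-fold 6 of these were higher and 3 lower at 3 h, with a median of 0.01. The share past 1.5-fold was 6.94% higher and 4.80% lower over all genes. Ikzf2, which encodes the zinc finger protein Helios, differed by -1.63 (8.19 to 6.56). Sox6 differed by 1.70 (4.38 to 6.08) and Ets1 by 1.53 (7.37 to 8.90), both on probe sets that can match several genes. Sox6 passed the floor only at 3 h, which fixed its direction. The other genes past 1.5-fold, named after their values were seen, were Elf1 (0.75), the glucocorticoid receptor gene Nr3c1 (0.70), Runx1 (0.67) and Gata2 (0.62), all higher, and Klf2 (-0.85) and Etv6 (-0.69), both lower. Of these, Nr3c1 also rests on a probe set that can match several genes. Spi1, which encodes the myeloid factor PU.1 that opposes GATA1, differed by 0.41 (7.04 to 7.44), and Fli1, a megakaryocytic factor that opposes KLF1, by -0.03 (7.25 to 7.22). The inhibitors of helix-loop-helix factors, which can keep E proteins from TAL1, were short of 1.5-fold, with differences of -0.40 for Id1, -0.26 for Id2 and -0.24 for Id3. Whether these genes differ from the members was not tested.

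The NF-E2 target gene Rab27b, named after its values were seen, had 3.35 at 0 h and 5.14 at 3 h, and the MYB target gene Cdk6 had 4.44 and 3.23. All of these values lie below the floor, where array differences are least certain.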
